A study of Rattus norvegicus with 6 samples.

Results

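The genes described here carry the cyclic AMP signal from the receptor-coupled G proteins to the nucleus, or switch that signal off. They were chosen by name, as rows of the count table for G protein alpha subunits (Gnas, Gnai), adenylyl cyclases (Adcy), protein kinase A subunits (Prka), A-kinase anchoring proteins (Akap), exchange factors for the GTPase Rap (Rapgef), CREB factors and coactivators (Creb, Crem, Crebbp, Crtc) and phosphodiesterases (Pde). A row had to reach 10 counts in at least 3 of the 6 libraries. Of 82 rows with a matching name, 64 met this minimum, out of 32883 rows in all. The 64 rows carry 62 names, because Gnas and Pde4c each have 2 rows. The rule for rows used names and count levels, and no row was admitted by libraries of a single group alone, but the gene family was picked with earlier results of these data known.

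All 6 libraries came from wild-type GH4C1 cells, a long-established line from a rat pituitary tumour that makes prolactin and growth hormone, treated with psoralen, which crosslinks RNA strands that are paired with each other. RNA partners of the long noncoding RNA Neat1 were sought by pulling down RNA with oligonucleotides and sequencing strand-specific libraries. Pull-down used either oligo pool A (3 libraries) or oligo pool B (3 libraries). The sequences in the pools, their position on the target and a control role for either pool are not given in the sources used here, and neither are separate cultures, so p-values measure the spread between these libraries. Input RNA was not analysed here, so a level below is an amount recovered by pull-down, and a change in abundance in the cell cannot be told apart from a change in capture.

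Total counts ranged from 1826390 to 3685899 per library. A count of 0 allows up to 3 counts, between 0.814 and 1.64 CPM (counts scaled to the same total in every library), by counting error alone. The lineage markers were present, with Gh1 between 149 and 187 CPM and Pou1f1 between 139 and 227 CPM. Prl lay between 680.1 and 759 CPM with pool A and between 386 and 498 CPM with pool B (log2 fold change 0.83, edgeR adjusted p = 1.26e-05). Of 7 markers of other pituitary cell types, Tshb and Fshb were listed at 0 in every library and Cga in all but pool B replicate 3. Pomc stayed at or under 3.45 CPM, Nr5a1 at or under 3.41 CPM and Tbx19 at or under 7.16 CPM. Lhb lay between 9.10 and 15.999 CPM with pool A and between 39.97 and 45.02 CPM with pool B. Among markers of cells outside the pituitary lineages, the leukocyte gene Ptprc had 6, 1 and 18 counts with pool A and 0 in every pool B library, and the fibroblast gene Pdgfra had 16, 7 and 7 against 1, 6 and 2 counts. The fibroblast gene Col1a1 had at most 3 counts and the folliculostellate gene S100b at most 7. The part of these markers in the results was not tested.

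Cyclic AMP is made by adenylyl cyclases, which are activated by the stimulatory G protein alpha subunit and, for several of them, restrained by the inhibitory alpha subunits. It frees the catalytic subunits of protein kinase A (PKA) from their regulatory subunits, activates the Rap exchange factors of the Epac type and is destroyed by phosphodiesterases. PKA then phosphorylates CREB, which turns on genes with its coactivators. In cells of the growth hormone and prolactin lineage this route is known for carrying hypothalamic signals to hormone secretion and transcription.

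Of the 64 rows, 28 passed the threshold of edgeR's quasi-likelihood test (adjusted p under 0.05), against 40.6% of all 11582 genes tested. The members' share was 43.8%, near that background, so the list as a whole did not stand out by its number of calls. By direction, pool A had 20 of the calls (18.6% of all tested genes were higher there) and pool B had 8 (22.0% of all tested genes were higher there). This split depended on the scaling, with 16 and 13 when libraries were scaled by total counts alone. Across all 11582 tested genes, calls moved likewise, from 2154 to 1709 for pool A and from 2546 to 2922 for pool B. The count of members in favour of pool B was also small enough to move with a single library, and was 5 without pool A replicate 2. In 30 of the 64 rows the CPM values of one pool all lay above those of the other, against 49.1% of all tested genes. CPM were scaled by total counts, unlike the fold changes, so whether a narrow gap is open depends on the scaling. The fold changes spanned from 3.80 for Pde12 to -2.06 for Prkar1a on the log2 scale of pool A over pool B, which is used throughout. Only Pde12, Pde3b and Prkar1a were past the threshold with more than a 4-fold difference, and 7.82% of all tested genes were.

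**Figure D1:**
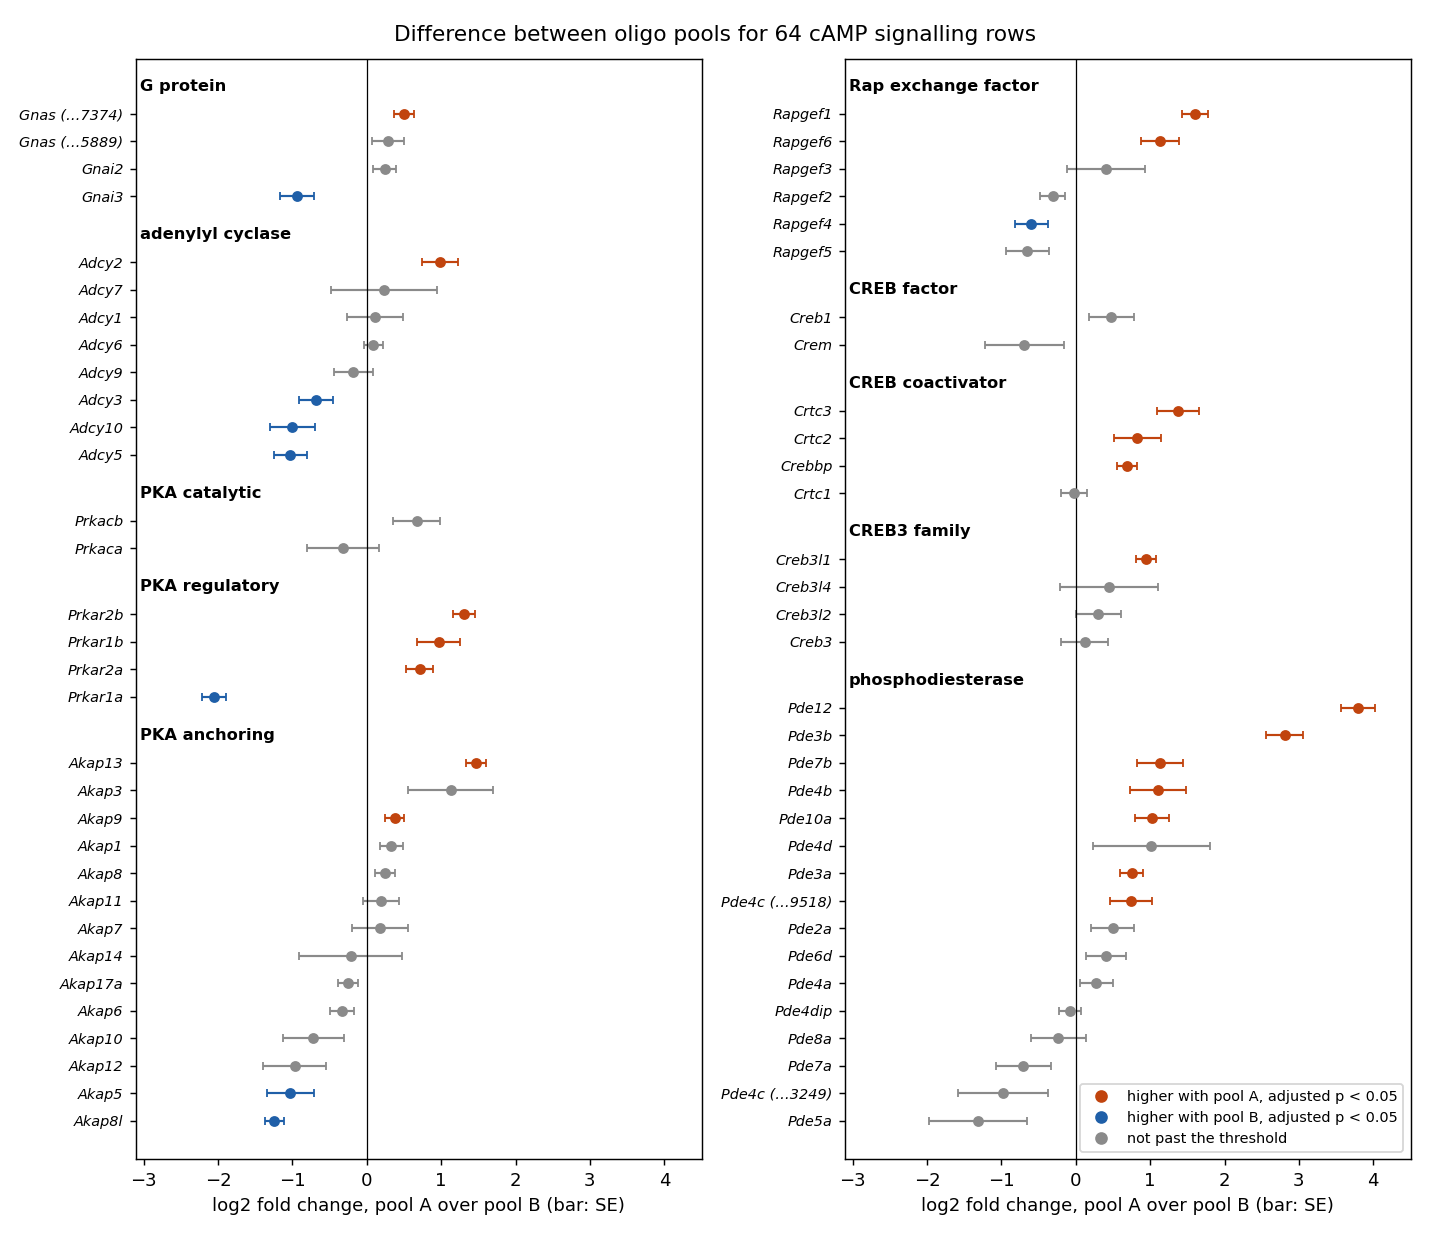
Log2 fold change of pool A over pool B (horizontal axis, bars are the standard error from edgeR) for the 64 rows, grouped by role, with the last digits of the identifier where a name has 2 rows. Of the phosphodiesterases, 7 rows lie past the threshold on the pool A side and 0 on the pool B side, and Prkar1a lies apart from the other PKA regulatory subunits.

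Among the G proteins, Gnai3, which encodes an inhibitory alpha subunit, was higher with pool B. It had 23.3, 32.8 and 25.7 CPM with pool A and 49.8, 65.7 and 57.9 CPM with pool B, so that every pool B library lay above every pool A library. The log2 fold change was -0.93 ± 0.23 (SE) and edgeR gave an adjusted p of 0.00176. Its relative Gnai2 had 155, 162 and 146 CPM with pool A and 145, 169 and 122 CPM with pool B, and the ranges overlapped. Gnai2 did not pass, at 0.24 ± 0.15 (SE; edgeR adjusted p = 0.222). Within a library, between 0.1503 and 0.203 counts of Gnai3 were found per count of Gnai2 with pool A, and between 0.344 and 0.474 with pool B. Gnai1 was listed at 0 in every library.

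Gnas encodes the stimulatory alpha subunit at a locus with several promoters, and the table divides it into 2 neighbouring rows. The row ENSRNOG00000047374 had 798, 971 and 1004 CPM with pool A and 678, 818 and 681 CPM with pool B. Pool B replicate 2 lay above pool A replicate 1, so the ranges overlapped. The row was higher with pool A by a log2 fold change of 0.50 ± 0.13 (SE) and edgeR gave an adjusted p of 0.00364. That call was lost with total counts alone, at an edgeR adjusted p of 0.0523, in a range of 0.000191 to 0.0523 over the alternatives. The row ENSRNOG00000025889 had 45.04, 48.6 and 46.7 CPM with pool A and 45.7, 38.3 and 42.8 CPM with pool B, and did not pass (0.29 ± 0.21 (SE), edgeR adjusted p = 0.303). How reads were divided between the rows is not stated.

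The adenylyl cyclases did not move as a group. Of 8 members, 3 were higher with pool B (Adcy3, Adcy5 and Adcy10), Adcy2 was higher with pool A and 4 did not pass, where 40.6% of all tested genes passed in either direction. Adcy5, a cyclase inhibited by Gi and by calcium, had 21.4, 23.3 and 32.0 CPM with pool A and 51.5, 60.8 and 60.2 CPM with pool B. The ranges were apart, at a log2 fold change of -1.03 ± 0.23 (SE; edgeR adjusted p = 0.000579). Hacd2, the row after Adcy5 in the table, was higher with pool B too (-0.73 ± 0.28 (SE), edgeR adjusted p = 0.0368), and its part in the value of Adcy5 was not tested. Adcy6, its closest relative, had 441, 372 and 466 CPM with pool A and 411, 452 and 466 CPM with pool B. Its ranges overlapped almost fully, with a log2 fold change of 0.09 ± 0.13 (SE; edgeR adjusted p = 0.621).

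Adcy2, which is stimulated by G protein beta-gamma subunits, went the other way. It had 45.3, 37.2 and 44.5 CPM with pool A and 19.1, 26.8 and 25.7 CPM with pool B, without overlap. The log2 fold change was 0.98 ± 0.24 (SE) and edgeR gave an adjusted p of 0.00184. Adcy10, the soluble cyclase that responds to bicarbonate, had 17.4, 14.2 and 14.4 CPM with pool A and 42.9, 19.7 and 38.2 CPM with pool B. Pool B replicate 2 was the closest to pool A. The log2 fold change was -0.999 ± 0.31 (SE) and edgeR gave an adjusted p of 0.010. Adcy3, a cyclase known from olfactory neurons and primary cilia, had 27.9, 26.5 and 37.0 CPM with pool A and 59.0, 41.1 and 60.9 CPM with pool B. Its pools did not overlap, at -0.68 ± 0.23 (SE; edgeR adjusted p = 0.0181).

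Several leave-one-out refits lost the calls of Adcy10 and Adcy3, while the fold changes kept their direction. Without pool B replicate 1 or 3 the edgeR adjusted p of Adcy10 was 0.0780 or 0.0501, at log2 fold changes of -0.79 and -0.90, in a range of 0.00110 to 0.0780 over the alternatives. For Adcy3 it was 0.0640 and 0.0787 without pool A replicates 1 and 2, and 0.0671 and 0.0945 without pool B replicates 1 and 3, in a range of 0.00636 to 0.0945. In these 4 refits its log2 fold change lay between -0.63 and -0.58. Adcy9, Adcy1 and Adcy7 did not pass, at -0.18 ± 0.26, 0.11 ± 0.37 and 0.23 ± 0.71 (SE). Adcy9 had 26.6, 25.3 and 27.6 CPM with pool A and 44.6, 25.2 and 28.8 CPM with pool B, where replicate 1 alone was high. Adcy1, a neuronal cyclase stimulated by calmodulin, had 15.5, 14.2 and 13.5 CPM with pool A and 18.7, 8.21 and 16.6 CPM with pool B. Adcy7 was the member nearest to the count minimum, with 17, 8 and 12 counts with pool A and 20, 1 and 8 counts with pool B. Just outside it were Creb5, with 0, 10 and 11 counts with pool A and 8, 1 and 7 with pool B, and Pde1a, with 11, 5 and 0 and with 16, 4 and 7 counts.

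The PKA regulatory subunits went in opposite directions. All 4 passed the threshold, 3 of them higher with pool A and Prkar1a higher with pool B, where 40.6% of all tested genes passed. Prkar1a encodes the type I alpha regulatory subunit, the widely expressed brake on the kinase. It had 36.4, 39.5 and 47.4 CPM with pool A and 196, 176 and 193 CPM with pool B. Every pool B library was more than 3 times every pool A library. On the log2 scale the difference was -2.06 ± 0.16 (SE) and edgeR gave an adjusted p of 4.52e-11.

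Prkar2b, the type II beta subunit known from neural and endocrine tissue, had 198, 203 and 213 CPM with pool A and 97.8, 99.7 and 78.3 CPM with pool B. The pool A libraries were all higher, by a log2 fold change of 1.30 ± 0.15 (SE) and edgeR gave an adjusted p of 4.90e-08. Prkar1b, the neuronal type I subunit, had 30.1, 26.5 and 27.3 CPM with pool A and 15.0, 15.9 and 16.6 CPM with pool B. Its ranges were apart, at 0.97 ± 0.29 (SE; edgeR adjusted p = 0.00801). Prkar2a, the broadly expressed type II subunit, had 118, 111 and 95.4 CPM with pool A and 88.3, 65.7 and 65.1 CPM with pool B. The gap between pools was small but open, at 0.71 ± 0.18 (SE; edgeR adjusted p = 0.00200).

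A ratio of counts within a library does not depend on scaling. Prkar1a and Prkar2b were already called in opposite directions, so their ratio restates those calls and is not separate support. Between 0.183 and 0.222 counts of Prkar1a were found per count of Prkar2b with pool A, and between 1.77 and 2.47 with pool B. The ratio was thus higher in every pool B library, and since no lengths came with the table it says nothing of which subunit RNA was more abundant. The rows next to Prkar1a in the table had at most 4 counts in any library. Beside Prkar2b lies Hbp1, which was higher with pool A as well (1.14 ± 0.24 (SE), edgeR adjusted p = 0.000260), and its part in the value of Prkar2b was not tested.

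The catalytic subunits did not pass the threshold in edgeR, DESeq2 or limma-voom, and 1 of the 2 had an unadjusted p under 0.05. Prkaca had 10.3, 7.12 and 5.02 CPM with pool A and 9.54, 14.8 and 7.57 CPM with pool B, with wide overlap. Prkacb had 36.1, 19.8 and 36.1 CPM with pool A and 32.0, 13.1 and 17.4 CPM with pool B. Replicate 2 was the lowest library of Prkacb in both pools. Prkacb stood at a log2 fold change of 0.67 ± 0.31 (SE) and edgeR gave an adjusted p of 0.0907. Prkacb passed without pool A replicate 2 (edgeR adjusted p = 0.0417) and without pool B replicate 1 (0.00972), in a range of 0.00972 to 0.307 over the alternatives.

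**Figure D2:**
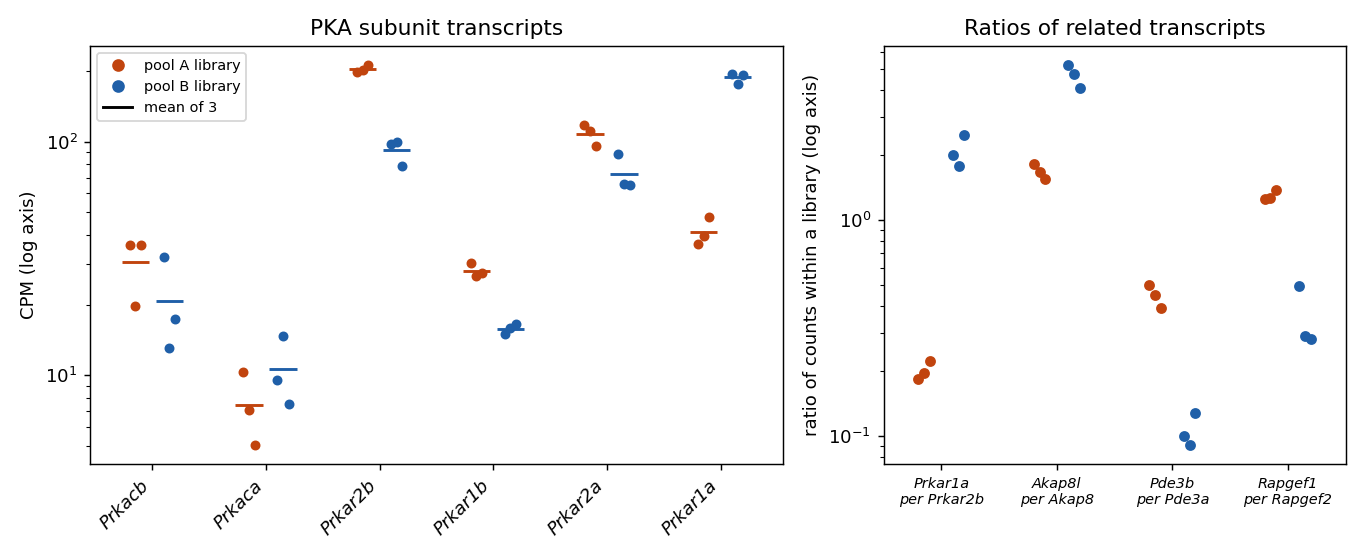
Left, CPM per library (log axis) of the PKA catalytic and regulatory subunit rows, with lines at the mean of the 3 libraries of a pool. Right, counts of a gene per count of a related gene within each library (log axis), where the pools are apart for all 4 ratios and Prkar1a per Prkar2b runs from 0.183 to 0.222 with pool A and from 1.77 to 2.47 with pool B. Each ratio has a row already called as its numerator, so the ratios are not separate support.

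A-kinase anchoring proteins hold PKA at particular places in the cell. Of 14 members, each pool had 2 calls and 10 did not pass, a called share of 28.6% against 40.6% of all tested genes. Akap13, which is also an exchange factor for the GTPase RhoA, had 387, 396 and 462 CPM with pool A and 156, 181 and 161 CPM with pool B. All pool A libraries were more than 2 times all pool B libraries. The log2 fold change was 1.47 ± 0.13 (SE) and edgeR gave an adjusted p of 6.22e-10. Akap9, a large scaffold of the Golgi and centrosome, had 552, 460 and 581 CPM with pool A and 474, 423 and 457 CPM with pool B. Its ranges overlapped, at 0.38 ± 0.13 (SE; edgeR adjusted p = 0.0196). The call for Akap9 was lost with total counts alone (edgeR adjusted p = 0.196) and on leaving out pool A replicate 1 (0.0646) or replicates 2 or 3 of pool B (0.105 and 0.0530), in a range of 0.00258 to 0.196.

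In favour of pool B, Akap8l had 416, 358 and 434 CPM with pool A and 1088, 1102 and 965.5 CPM with pool B. It encodes a nuclear protein related to the chromatin-bound anchor Akap8, and the 2 genes are neighbours in the table. No library of one pool came near the other pool. The log2 fold change was -1.24 ± 0.13 (SE) and edgeR gave an adjusted p of 7.25e-09. Akap8 had 229, 216 and 279 CPM with pool A and 208, 232 and 235 CPM with pool B, overlapped, and did not pass (0.24 ± 0.13 (SE), edgeR adjusted p = 0.160). Counts of Akap8l per count of Akap8 ran from 1.55 to 1.81 with pool A and from 4.10 to 5.22 with pool B. Wiz, on the other side of Akap8l in the table, did not pass either (0.41 ± 0.20 (SE), edgeR adjusted p = 0.101).

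Akap5, a plasma membrane scaffold that also binds calcineurin, had 10.04, 10.7 and 22.6 CPM with pool A and 25.2, 38.3 and 33.7 CPM with pool B. Pool A replicate 3 lay close to the lowest pool B library. The log2 fold change was -1.03 ± 0.32 (SE) and edgeR gave an adjusted p of 0.0110. Without pool A replicate 1 or 2 the edgeR adjusted p of Akap5 was 0.0694 or 0.0620, in a range of 0.00184 to 0.0694. Mthfd1, the row before Akap5 in the table, was also higher with pool B (-0.66 ± 0.16 (SE), edgeR adjusted p = 0.00140), and its part in the value of Akap5 was not tested. Akap12 and Akap6 had ranges apart in the same direction without passing. Akap12 had 7.33, 5.93 and 6.90 CPM with pool A and 15.3, 13.7 and 14.8 CPM with pool B, at -0.97 ± 0.43 (SE; edgeR adjusted p = 0.0715). Akap6, an anchor at the nuclear envelope, had between 78.3 and 79.4 CPM with pool A and between 104 and 119 CPM with pool B, at -0.33 ± 0.16 (SE; edgeR adjusted p = 0.103). The other anchors that did not pass were Akap1, Akap3, Akap7, Akap10, Akap11, Akap14 and Akap17a, beside Akap8.

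Among the 6 Rap exchange factors, 2 were higher with pool A, 1 was higher with pool B and 3 did not pass (40.6% of all tested genes passed). Rapgef1, which acts downstream of tyrosine kinases, had 125.6, 123.4 and 137.1 CPM with pool A and 53.2, 49.3 and 38.2 CPM with pool B. The pools were well apart, at 1.602 ± 0.175 (SE; edgeR adjusted p = 1.95e-08). Rapgef6 had 35.5, 38.0 and 51.8 CPM with pool A and 23.9, 17.5 and 20.8 CPM with pool B. Its ranges did not overlap, at 1.13 ± 0.25 (SE; edgeR adjusted p = 0.000630). Med27, the row before Rapgef1, was higher with pool B (-1.26 ± 0.35 (SE), edgeR adjusted p = 0.00505), opposite to Rapgef1.

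Rapgef4 and Rapgef3 encode the Epac proteins, which cyclic AMP activates directly. Rapgef4, known from secretory cells, had 32.8, 31.6 and 27.9 CPM with pool A and 50.1, 58.6 and 47.3 CPM with pool B. The ranges were apart, at -0.60 ± 0.22 (SE; edgeR adjusted p = 0.0324). The call was lost with upper-quartile factors (edgeR adjusted p = 0.0764), with no filter on low counts (0.0522) and on leaving out replicates 2 or 3 of pool A (0.0634 and 0.131) or replicates 1 or 2 of pool B (0.0529 and 0.108), in a range of 0.00880 to 0.131. Rapgef3 had 18.2, 12.3 and 7.53 CPM with pool A and 16.4, 1.10 and 13.2 CPM with pool B, where replicate 2 stood at 2 counts. It did not pass (0.41 ± 0.53 (SE), edgeR adjusted p = 0.575). Rapgef2 and Rapgef5 had ranges apart in favour of pool B without passing, at -0.31 ± 0.17 (SE) and -0.65 ± 0.29 (SE), with edgeR adjusted p-values of 0.143 and 0.0795. The gap of Rapgef2 was narrow, from 100.9 CPM in pool A replicate 1 to 107.4 CPM in pool B replicate 1. How far it depends on the scaling was not tested.

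The GTPases that these factors load were read from a list of related genes. Of 16 listed genes for Rap1, its inactivators and cyclic-nucleotide-binding channels and membrane proteins, 10 were tested, with 1 call for pool A and 6 for pool B, against 18.6% and 22.0% of all tested genes. DESeq2 made 1 and 5 calls and limma-voom 1 and 6. Rap1b had 5.15, 5.14 and 13.8 CPM with pool A and 163, 186 and 154 CPM with pool B. That is a log2 fold change of -4.23 ± 0.25 (SE) and edgeR gave an adjusted p of 1.43e-13. This difference was larger than that of any member. Rap1a had 43.7, 35.2 and 43.6 CPM with pool A and 15.3, 27.9 and 14.4 CPM with pool B, opposite in direction at 1.26 ± 0.27 (SE; edgeR adjusted p = 0.000473). Rap1a and Rap1b encode nearly identical proteins, and how reads shared between such copies were counted is not stated. The cyclic-nucleotide channel genes Hcn3 and Cngb1 were both higher with pool B, at -1.48 ± 0.27 (SE) and -1.18 ± 0.24 (SE), with edgeR adjusted p-values of 6.39e-05 and 0.000255.

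Of the 4 CREB coactivators, 3 were higher with pool A, while neither of the CREB factors passed (18.6% of all tested genes were higher with pool A and 40.6% passed in either direction). Crtc3, a coactivator that moves to the nucleus when cyclic AMP rises, had 37.2, 28.9 and 32.3 CPM with pool A and 13.0, 12.6 and 16.3 CPM with pool B. Its ranges were apart, at 1.37 ± 0.29 (SE; edgeR adjusted p = 0.000301). Crtc1 had 75.4, 75.5 and 80.3 CPM with pool A and 98.2, 81.0 and 80.2 CPM with pool B. It did not pass, at -0.02 ± 0.17 (SE; edgeR adjusted p = 0.931). From 0.382 to 0.493 counts of Crtc3 were found per count of Crtc1 with pool A and from 0.132 to 0.203 with pool B.

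Crebbp, the histone acetyltransferase that binds phosphorylated CREB, had 275, 274 and 292 CPM with pool A and 169.7, 212 and 195 CPM with pool B. Its pools were apart, at 0.69 ± 0.14 (SE; edgeR adjusted p = 0.000146). Crtc2 had 22.2, 25.3 and 22.6 CPM with pool A and 14.3, 12.05 and 17.0 CPM with pool B, without overlap, at 0.83 ± 0.31 (SE; edgeR adjusted p = 0.0367). This was among the least stable calls. The edgeR adjusted p was 0.0928 with total counts alone, 0.0560 with no filter, 0.0656 and 0.114 without pool A replicates 1 and 2, and 0.0710 and 0.102 without pool B replicates 1 and 2, in a range of 0.0186 to 0.114.

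Of the factors themselves, Creb1 had 24.4, 30.5 and 22.6 CPM with pool A and 16.7, 27.9 and 17.8 CPM with pool B. Pool B replicate 2 fell inside the pool A range, and Creb1 did not pass (0.48 ± 0.30 (SE), edgeR adjusted p = 0.213). Crem, whose internal promoter yields the cyclic AMP-induced repressor ICER, had 5.15, 3.56 and 6.59 CPM with pool A and 12.3, 8.21 and 6.81 CPM with pool B. The ranges were barely apart on between 9 and 36 counts, and Crem did not pass (-0.69 ± 0.53 (SE), edgeR adjusted p = 0.325). Neither factor passed with DESeq2 or limma-voom, and 0 of the 2 had an unadjusted p under 0.05 in edgeR.

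In the CREB3 family, whose members are membrane-bound factors of the endoplasmic reticulum, 1 of 4 passed, against 40.6% of all tested genes. Creb3l1, which is cleaved in the Golgi to release its active part, had 338, 303 and 359 CPM with pool A and 189.5, 209.7 and 174 CPM with pool B. The ranges were apart, at 0.95 ± 0.13 (SE; edgeR adjusted p = 1.39e-06). Creb3, Creb3l2 and Creb3l4 did not pass, with log2 fold changes of 0.12, 0.30 and 0.45.

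CREB is known to bind the cyclic AMP response element, which was searched for in promoters of the members. RefSeq promoter windows of the GRCr8 assembly, 250 bases before to 50 after a start, were found for 50 of the 62 member names, 68 windows in all. The full element TGACGTCA, its own reverse complement, was in 3 of these windows, belonging to Crem and Akap17a, against 1.83% of all windows and 3.32% of windows of tested genes. Its core TGACG, or CGTCA on the other strand, which the full element also contains, was in 21 windows of 17 members, against 21.2% of all windows and 32.3% of windows of tested genes. The windows with the full element are shown because Crem is the textbook case of control by its own pathway, with that of Creb1, which holds only the core. Capitals mark the motif, and each is read 5′ to 3′ on the gene's strand.
Crem, chr17:58984721-58984768, plus strand: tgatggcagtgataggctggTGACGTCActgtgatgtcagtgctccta
Crem, chr17:58985435-58985482, plus strand: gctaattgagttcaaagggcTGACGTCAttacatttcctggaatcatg
Akap17a, chr12:21428432-21428479, minus strand: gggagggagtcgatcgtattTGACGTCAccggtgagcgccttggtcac
Creb1, chr9:73397409-73397474, plus strand: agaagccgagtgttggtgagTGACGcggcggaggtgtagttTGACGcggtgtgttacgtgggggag
The motif begins 56 and 35 bases before the respective start in Crem, 212 bases before it in Akap17a and first 80 bases before it in Creb1. These matches describe letters in a window of that assembly, which may not be the build used for counting, and are not binding sites measured here. None of the 3 genes passed the threshold between the pools. Akap17a, a nuclear anchor that also takes part in splicing, had 257, 248 and 279 CPM with pool A and 274, 394 and 366 CPM with pool B, at -0.25 ± 0.14 (SE; edgeR adjusted p = 0.160).

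Phosphodiesterases end the signal, and here their calls all lay on the pool A side. Of 16 rows, 7 were higher with pool A (18.6% of all tested genes were), 0 were higher with pool B (22.0% of all tested genes were) and 9 did not pass in edgeR's test. The count in favour of pool B was also 0 at an unadjusted p under 0.05, with DESeq2 and with limma-voom, which called 6 rows each for pool A. Without Pde12, Pde6d and Pde4dip, which do not split cyclic nucleotides, 6 of 13 rows were called for pool A and 0 for pool B, with a median log2 fold change of 0.74. Of the 48 other members, 13 favoured pool A and 8 favoured pool B. The share past the threshold was 43.8% in both classes, near the 40.6% of all tested genes. The median log2 fold change was 0.62 over the phosphodiesterase rows, 0.21 over the other members and 0.02 over all tested genes. The median of the other members was 0.07 with total counts alone, where that of all tested genes was -0.13, and 0.08 without pool B replicate 2. These medians describe rows that met the count minimum, and the difference between the classes was not tested, since genes are not replicates.

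Pde12 had the largest fold change of all members. With Pde6d and Pde4dip it is one of 3 members that carry the name without splitting cyclic nucleotides, being a mitochondrial nuclease that removes adenosines from RNA. It had 156.5, 154.6 and 150.0 CPM with pool A and 9.20, 19.2 and 9.84 CPM with pool B. The pool A libraries were close to each other and far above all pool B libraries, where 27, 35 and 26 counts were found. Pool A exceeded pool B 13.9-fold, with a log2 fold change of 3.80 ± 0.23 (SE; edgeR adjusted p = 1.58e-13). Arf4, the row before it in the table, did not pass (0.25 ± 0.23 (SE), edgeR adjusted p = 0.404), and Dnah12, the row after it, had at most 2 counts.

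Pde3b, the insulin-regulated enzyme known from fat and liver, followed with 81.7, 62.9 and 84.1 CPM with pool A and 10.6, 10.4 and 14.8 CPM with pool B. No values overlapped, and the fold was 6.996, a log2 fold change of 2.81 ± 0.24 (SE) and edgeR gave an adjusted p of 2.38e-10. Pde3a, its relative known from heart muscle and oocytes, was shifted the same way to a smaller extent. It had 163, 140.0 and 214 CPM with pool A and 106, 115 and 116 CPM with pool B, at 0.75 ± 0.15 (SE; edgeR adjusted p = 0.000229). Between 0.393 and 0.502 counts of Pde3b were found per count of Pde3a with pool A, and between 0.0905 and 0.127 with pool B. This ratio restates the larger shift of Pde3b and is not separate support.

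Pde7b, an enzyme specific for cyclic AMP, had 28.8, 28.9 and 38.9 CPM with pool A and 11.6, 12.05 and 24.2 CPM with pool B. Pool B replicate 3 came closest to pool A. Pde7b stood at a log2 fold change of 1.14 ± 0.31 (SE) and edgeR gave an adjusted p of 0.00390. The preceding row in the table, Mtfr2, was likewise higher with pool A (0.93 ± 0.14 (SE), edgeR adjusted p = 5.53e-06), and its part in the value of Pde7b was not tested. The paralog Pde7a had 8.41, 12.7 and 21.0 CPM with pool A and 14.0, 25.7 and 35.6 CPM with pool B, overlapped and did not pass (-0.71 ± 0.37 (SE), edgeR adjusted p = 0.133). Pde10a, the enzyme of striatal neurons that splits cyclic AMP and cyclic GMP, had 62.7, 64.9 and 80.6 CPM with pool A and 41.9, 48.2 and 23.8 CPM with pool B. Its pools were apart, at 1.02 ± 0.22 (SE; edgeR adjusted p = 0.000541).

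The Pde4 enzymes, specific for cyclic AMP and the targets of rolipram, gave 2 calls on 5 rows, both with overlapping ranges, a share near the 40.6% of all tested genes. Pde4b had 13.0, 23.3 and 29.2 CPM with pool A and 11.6, 6.57 and 14.4 CPM with pool B, at 1.11 ± 0.38 (SE; edgeR adjusted p = 0.0195). That call was lost on leaving out replicates 2 or 3 of pool A (edgeR adjusted p = 0.0681 and 0.101) or replicate 2 of pool B (0.0792), in a range of 0.00645 to 0.101. Pde4c has 2 neighbouring rows whose values ran in opposite directions. The row ENSRNOG00000019518 had 47.5, 19.8 and 54.0 CPM with pool A and 24.5, 30.1 and 25.7 CPM with pool B. Pool A replicate 2 was its lowest library, and the row was called for pool A at 0.74 ± 0.28 (SE) and edgeR gave an adjusted p of 0.0361.

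That Pde4c call was lost with total counts alone (edgeR adjusted p = 0.100), in DESeq2 (0.0509), in limma-voom (0.0536) and on leaving out replicates 1 or 3 of pool A (0.171 and 0.181) or of pool B (0.100 and 0.0917), in a range of 0.00215 to 0.181. The row ENSRNOG00000043249 had 2.44, 8.31 and 2.82 CPM with pool A and 9.54, 14.8 and 5.30 CPM with pool B, and did not pass (-0.97 ± 0.60 (SE), edgeR adjusted p = 0.215). Pde4a, between 37.2 and 47.5 CPM with pool A and between 32.3 and 45.4 CPM with pool B, did not pass (0.28 ± 0.22 (SE), edgeR adjusted p = 0.354). Pde4d had 18, 13 and 10 counts with pool A and 15, 0 and 4 counts with pool B, and did not pass (1.02 ± 0.79 (SE), edgeR adjusted p = 0.329). In pool B replicate 2 the count of 0 allows up to 1.64 CPM.

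The remaining phosphodiesterase rows did not pass. Pde5a, specific for cyclic GMP, had ranges apart in favour of pool B, with 11, 2 and 12 counts with pool A and 20, 17 and 14 counts with pool B, at -1.31 ± 0.66 (SE; edgeR adjusted p = 0.119). Pde2a, which cyclic GMP stimulates, had between 21.8 and 29.6 CPM with pool A and between 15.1 and 24.6 CPM with pool B, at 0.50 ± 0.29 (SE). Pde8a, with a high affinity for cyclic AMP, had between 11.7 and 22.6 CPM with pool A and between 12.6 and 36.7 CPM with pool B, at -0.23 ± 0.37 (SE). Pde6d carries prenylated proteins and Pde4dip (myomegalin) is a scaffold of the Golgi and centrosome, so neither splits cyclic nucleotides. Pde6d was at 0.41 ± 0.27 (SE) and Pde4dip at -0.08 ± 0.15 (SE) on the log2 scale.

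**Figure D3:**
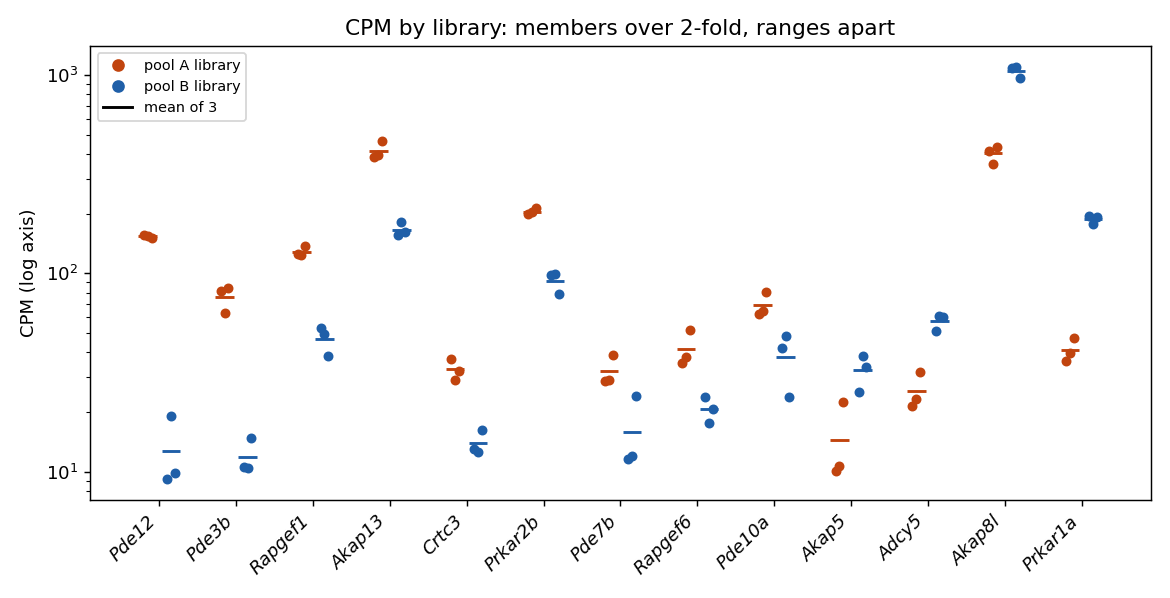
CPM per library (log axis) of the 13 members past the threshold with more than a 2-fold difference and ranges that do not overlap, with lines at the mean of the 3 libraries of a pool. Pde12 and Pde3b show the widest gaps in favour of pool A and Prkar1a the widest in favour of pool B.

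**Figure D4:**
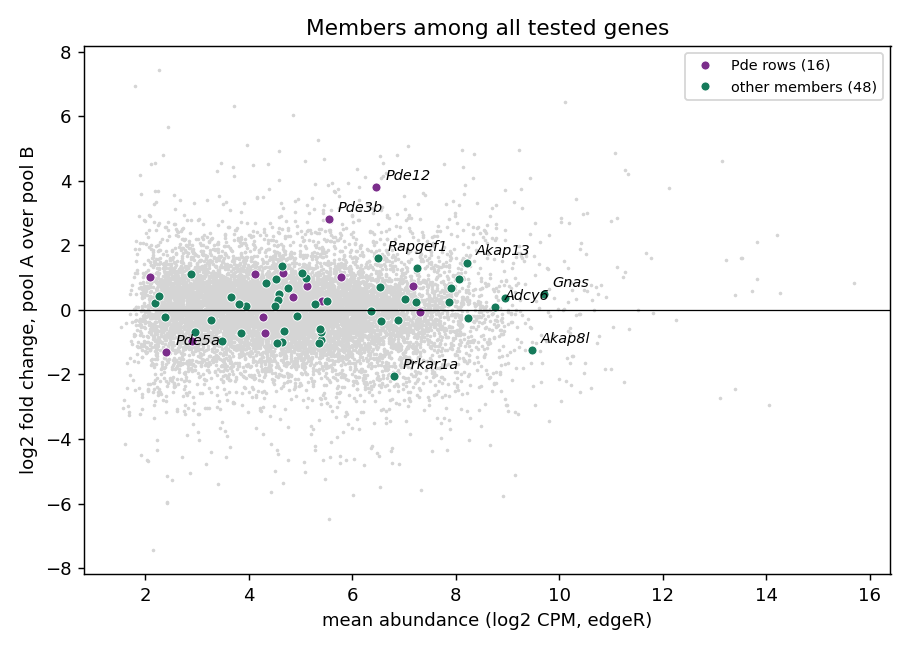
Log2 fold change of pool A over pool B against mean abundance (log2 CPM) for all 11582 tested genes (grey), with the 16 phosphodiesterase rows and the 48 other members coloured. The members lie within the spread of the other genes, and Pde12 at 3.80 and Prkar1a at -2.06 are the outermost of them.

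Genes of the route outside the naming rule were read from lists chosen with earlier results of these data known. Of 22 receptors coupled to Gs or Gi, 5 were tested, 0 were higher with pool A (0 at an unadjusted p under 0.05, with DESeq2 and with limma-voom) and 2 were higher with pool B, against 18.6% and 22.0% of all tested genes. These were Gipr, the receptor for the incretin GIP (-1.55 ± 0.21 (SE), edgeR adjusted p = 9.40e-07), and the somatostatin receptor Sstr1 (-0.53 ± 0.21 (SE), edgeR adjusted p = 0.0443). DESeq2 called 1 of the 2. Of 26 other G protein subunits and regulators, 20 were tested, with 2 calls for pool A and 9 for pool B, against 18.6% and 22.0% of all tested genes. DESeq2 made 1 and 8 calls and limma-voom 2 and 8. The largest in favour of pool B were Gpsm3, Gpsm1 and Gnb3, at -1.25 ± 0.43, -1.14 ± 0.19 and -0.99 ± 0.39 (SE). The ranges of Gnb3 overlapped, with pool B replicate 2 at 8.76 CPM, under every pool A library. In favour of pool A, Gng13 had 28, 15 and 21 counts against 1, 1 and 0, at 4.55 ± 0.92 (SE). It met the expression filter through its pool A libraries alone, so its call is not independent of how it was admitted. Gng3 was at 1.02 ± 0.41 (SE) with overlapping ranges.

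Of 12 further PKA inhibitors and anchors, 8 were tested, with 2 calls for each pool (40.6% of all tested genes passed). Lrba, a large anchor of vesicle membranes, had between 156.9 and 195.3 CPM with pool A and between 514 and 545 CPM with pool B (-1.47 ± 0.14 (SE), edgeR adjusted p = 1.16e-09). Ezr, which links membranes to actin, was shifted alike (-1.42 ± 0.13 (SE), edgeR adjusted p = 6.55e-10). Arfgef2 and Wasf1 were higher with pool A, at 0.96 ± 0.17 and 0.93 ± 0.33 (SE). Of the inhibitor genes proper, Pkia and Pkig were tested and did not pass (-1.14 ± 0.57 and -0.22 ± 0.32 (SE)).

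Of 13 further CREB relatives and kinases or phosphatases of the route, 12 were tested, 4 were higher with pool A and 1, Sik2, was higher with pool B (-0.80 ± 0.27 (SE), edgeR adjusted p = 0.0179). Their called share of 41.7% was close to the 40.6% of all tested genes. Atf1, the closest relative of Creb1 after Crem, had between 87.6 and 106 CPM with pool A and between 35.2 and 49.4 CPM with pool B (1.39 ± 0.19 (SE), edgeR adjusted p = 9.04e-07). Ppp3cb and Crebrf were also called for pool A, at 1.36 ± 0.53 and 0.46 ± 0.18 (SE). Of 17 genes known as CREB targets, 10 were tested and 0 passed in edgeR, against 40.6% of all tested genes, with 1 at an unadjusted p under 0.05. Several of them had few counts, such as Nr4a3 with 2 to 14 per library, so a difference could be missed. DESeq2 called 0 and limma-voom called 1. Among them, Per1 had a log2 fold change of -0.08 ± 0.27 (SE), Nr4a1 of 0.65 ± 0.67 (SE) and Vgf of 0.62 ± 0.27 (SE, edgeR adjusted p = 0.0715).

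Part of the list had few counts. Of the 64 rows, 9 had fewer than 10 counts in some library, and 0 of these passed in edgeR, at an unadjusted p under 0.05, in DESeq2 or in limma-voom. All 28 calls came from the 55 rows that reached 10 counts in each library. A refit limited to rows with that many counts called 20 of the 55 for pool A and 9 for pool B, and 4278 of all 9272 genes in it. The 18 matching rows under the minimum included 10 phosphodiesterases, with the visual enzymes Pde6a, Pde6b and Pde6c and their partners Pde6g and Pde6h, Pde1a, Pde1b, Pde1c, Pde8b and Pde9a. Of the 18, 5 were listed at 0 in every library (Akap2, Akap4, Akap17b, Gnai1 and Pde1b). The others were Adcy4, Adcy8, Creb3l3 and Creb5.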

How the data were processed

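RNA pulled down with oligo pool A or B was measured in 3 libraries each. The authors deposited raw counts per gene with Ensembl rat identifiers, and a mean per pool (a signal column equal to the mean of 3 counts), which was not used. STAR and featureCounts are named in the submitters' processing notes, and versions, build, annotation and strand setting are not given in the sources used here. Columns were matched to samples by title.

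Pools were compared on all 6 libraries with edgeR 4.0.16 in R 4.3.3 (TMM, edgeR's expression filter, quasi-likelihood test, pool as the only term), two-sided, with Benjamini-Hochberg adjustment over all 11582 tested genes and a threshold of 0.05. Standard errors come from the fold change and its F statistic. CPM use total counts. The script was tested on simulated data. Alternatives were other scalings, filters, DESeq2 1.42.0, limma 3.58.1 (voom), a replicate block, libraries left out, a threshold of 0.01 and other count minimums.

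Members and lists were chosen with earlier results of these data known. Named were all members past the threshold, with values per library for those over 2-fold without overlap and for the core route, and up to 3 genes per direction of each other list. No gene lengths came with the table, so levels of different genes were not compared. Promoters come from RefSeq (GRCr8).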

Additional observations from a re-analysis of the deposited data

How the results depend on the processing

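Of 555 refits of 40 named rows, 506 kept their direction and side of the threshold, 37 lost the call, 3 gained it and 9 changed sign. Of the 28 rows past the threshold, 19 kept the call in every refit. The sign changes were of rows that did not pass. Crtc1 was at 0.079 with upper-quartile factors. Adcy6 and Adcy1 were at -0.053 and -0.036 with total counts alone. Leaving out a library gave Crtc1 from -0.079 to 0.080, Adcy1 from -0.16 to 0.33, Adcy9 from -0.34 to 0.11, Adcy7 from -0.22 to 0.35 (in the 4 refits that tested it) and Rapgef3 from -0.075 to 0.89. The cause was not tested.

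Members higher with pool A numbered 16 to 22 over the alternatives, and those higher with pool B 13 with total counts alone and 5 with an adjusted p under 0.01. Without a library the latter ran from 5 (pool A replicate 2) to 9 (pool B replicate 1). Total counts moved the median of all tested genes from 0.02 to -0.13 and upper-quartile factors to 0.12, and the median of the other members from 0.21 to 0.07 and 0.31. That median was 0.08 without pool B replicate 2. The phosphodiesterase median stayed between 0.48 and 0.76. With the replicate block, the counts of members were 19 for pool A and 8 for pool B, with Crtc2 and the Pde4c row ENSRNOG00000019518 lost (edgeR adjusted p = 0.0520 and 0.0756) and Prkacb gained (0.0486). Deviations of same-numbered libraries correlated at 0.041, -0.020 and 0.019, and the numbers were therefore not read as pairing. A minimum of 5 counts added no tested row. Whether more depth would change the calls of the 9 rows with few counts was not tested.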
